A study of Mus musculus with 6 samples.

Results

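The tripartite motif (Trim) genes were examined in mouse bone marrow monocytes kept in culture with or without the type I interferon IFN-beta. Every array probe whose gene name was Trim followed by a number and an optional letter was taken, which gave 121 probes for 66 gene names. A gene was kept when at least 1 of its probes was well above background on all 3 arrays of at least 1 group. This left 46 Trim genes, carried by 82 probes, out of 19500 genes tested on the same arrays. The other 20 names are listed with their detection at the end of the account of the family.

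Bone marrow monocytes of C57BL/6J mice, 6-8 weeks old, were purified by magnetic sorting (MACS) and cultured for 60 h. All cultures, the controls included, received M-CSF at 20 ng/mL, a cytokine that supports the survival and maturation of monocytes. The IFN-beta group (n = 3) received 100 U of mouse IFN-beta in addition and the control group (n = 3) did not. Total RNA was labelled with Cy3 and hybridised to 6 one-colour Agilent arrays, and the labels do not say whether the replicates came from separate animals, so the p-values measure the spread between these samples, which may be technical.

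Proteins of this family carry a RING finger, B-boxes and a coiled coil in a row, and most are ubiquitin ligases that choose their substrates through the domain at the C-terminal end. The largest class ends in a PRY-SPRY domain and includes retroviral capsid sensors of the TRIM5 kind, the cytosolic antibody receptor TRIM21 and TRIM25, a ligase that acts on the RNA sensor RIG-I. Other classes end in NHL repeats, fibronectin type III domains, or a PHD finger with a bromodomain, and act in the cytoskeleton, in messenger RNA control or on chromatin. Many PRY-SPRY members are known interferon-stimulated genes, read from promoters that bind the interferon-activated ISGF3 complex. In mouse, relatives of human TRIM5, TRIM6 and TRIM34, the Trim12 and Trim30 genes among them, lie in a row on chromosome 7.

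The level of a probe is given as log2 of its processed signal minus the array's 75th percentile of that signal, so that 0 is the brightness of the 75th percentile probe. A change is the difference of these levels, IFN-beta minus control, from a limma fit over all genes, with its standard error, and a gene was called when its Benjamini-Hochberg adjusted p over the 19500 genes was below 0.05. Where a gene had several detected probes, the brightest stood for it. Levels of different genes come from different probes and are not set against each other.

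The 6 arrays were not alike in ways other than treatment. The 75th percentile of the raw signal was 549 and 528 on controls 1 and 2, 305 on control 3 and 236 to 244 on the IFN-beta arrays. Of 15 fibroblast markers, controls 1 and 2 had 14 and 15 above background, control 3 had 6 and each IFN-beta array 8, and their summed level on the log2 scale was 9.10 and 9.32, then 0.25, then 1.43 to 1.70. The 7 muscle markers had summed levels of 8.28 and 8.42 on controls 1 and 2, 5.03 on control 3 and 3.78 to 5.69 with IFN-beta. Of 7 fibroblast markers tested by limma, 0 were called (1 had an unadjusted p under 0.05, and it was lower), and 2 of 4 muscle markers were called lower. All 10 monocyte and macrophage markers were above background on every array. Their summed level lay at 9.41 to 9.98 in controls and 10.2 to 10.3 with IFN-beta, and 2 were called higher and 3 lower. All 5 basophil and mast cell markers were called higher (summed level 2.33 to 3.21 in controls and 5.80 to 6.36 with IFN-beta), as were 6 of 9 neutrophil markers (8.92 to 9.35 and 9.72 to 10.02). Plasmacytoid dendritic cell markers had 2 of 5 called higher but a median change of -0.26, and their summed level was 5.49 to 5.96 in controls and 5.08 to 5.37 with IFN-beta. The 5 erythroid markers had summed levels of 7.07 and 6.96 on controls 1 and 2, -0.50 on control 3 and 0.69 to 1.23 with IFN-beta, and the 1 tested was not called. Of B cell markers 1 of 3 was called higher, and 1 of 2 T and NK cell markers was called lower. Over all genes tested, 11.8% were called higher and 8.04% lower. The part of these other transcripts in the Trim values was not tested, and in such samples a change in the cells present and a change in RNA per cell cannot be told apart. Controls 1 to 3 and IFN-beta array 1 shared a slide, and IFN-beta arrays 2 and 3 were on another. The value against control 3 alone is therefore given for called genes where it ends the call or moves the change by over 1.5 times. That fit has 1 control array, so its p-values rest on the spread of the IFN-beta arrays alone. Control 3 is assumed there to vary like them. For genes not called it is given only for some, and a missing value does not mean that the change held. The calls with slide taken into account are given together.

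With IFN-beta, 14 of the 46 Trim genes were called higher (30.4%) and 6 lower (13.0%), against 11.8% and 8.04% of all genes tested, and in either direction 20 were called (43.5%, against 19.8%). The median change was 0.26 for the Trim genes and 0.10 for all genes. At a change of at least 2-fold, 12 Trim genes were called higher (26.1%, against 6.74% of all genes) and 4 lower (8.70%, against 4.94%). The lower share was thus closer to that of all genes than the higher share was. In all 20 called genes the 3 IFN-beta arrays and the 3 control arrays did not overlap. Over the whole family, 30 of 46 genes had groups that did not overlap, 18 higher (39.1%, against 23.4% of all genes) and 12 lower (26.1%, against 16.8%), or 65.2% against 40.1% in either direction. Among the 42 Trim genes well above background on all 6 arrays, 13 were called higher and 5 lower, and with this filter on all genes the calls were 14% higher and 8.17% lower of 17537.

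**Figure D1:**
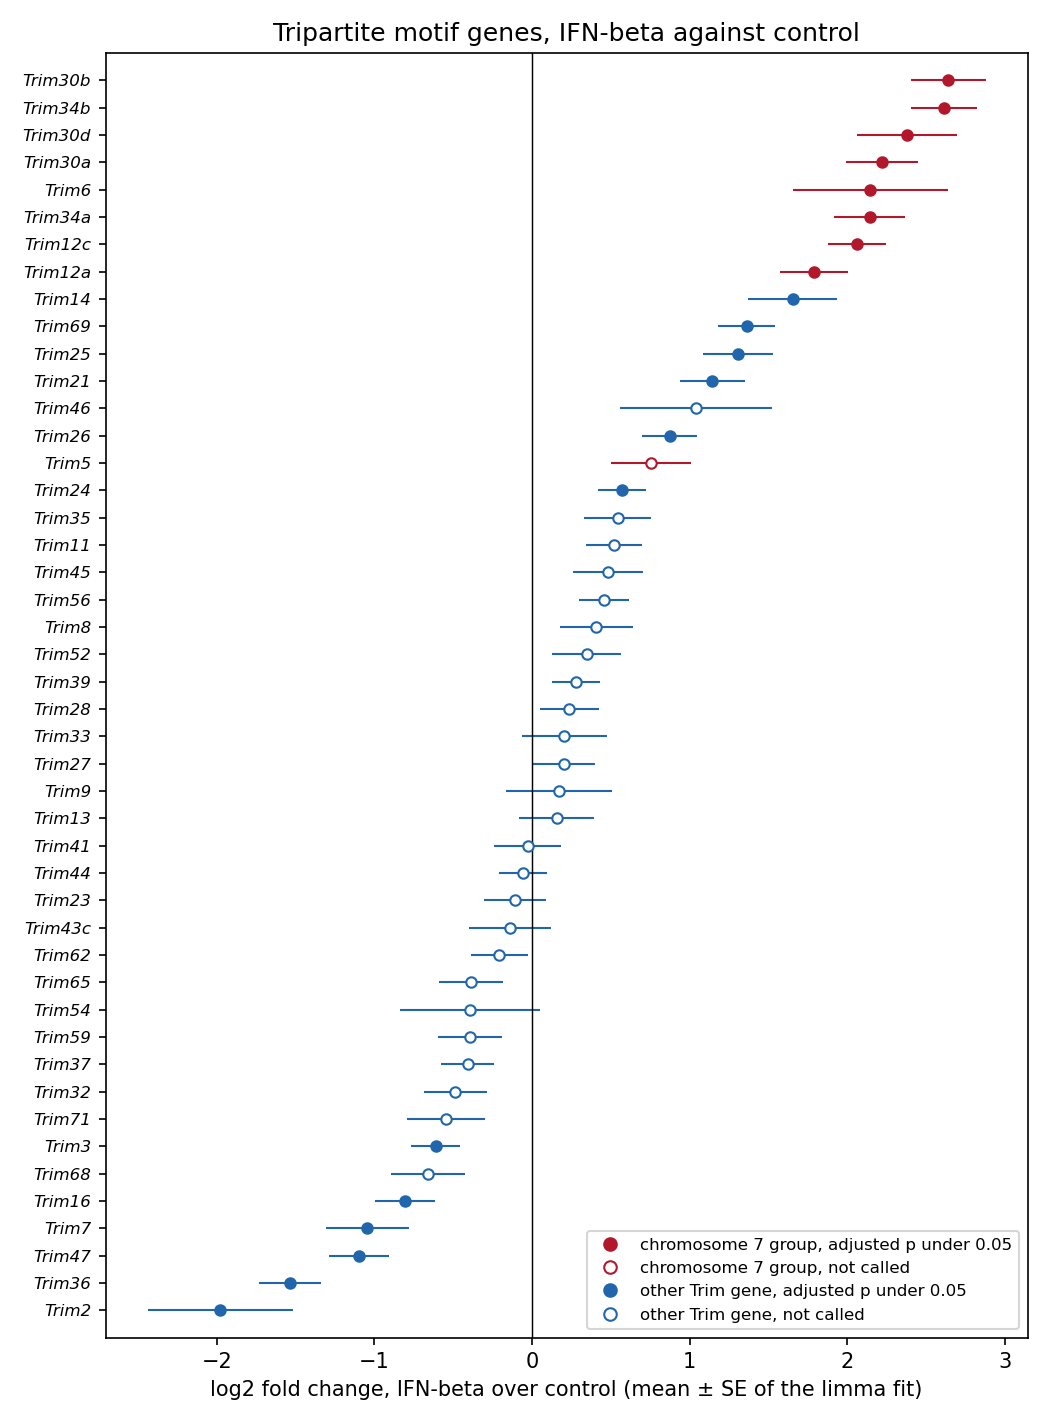
Change of each of the 46 Trim genes on the x axis (log2, IFN-beta minus control, mean ± SE of the limma fit, 3 arrays a group), sorted by size, with filled points for genes with an adjusted p under 0.05 and red points for the genes of the chromosome 7 group. The 8 filled red points sit between 1.79 and 2.64, above every other member.

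The counts depended on which controls were used. All these fits share the IFN-beta arrays, so a call held in several of them is not independent support. With control 3 as the only control, the spread comes from the IFN-beta arrays. Against control 3 alone, 11 Trim genes were called higher (23.9%, against 5.22% of all genes) and 2 lower (4.35%, against 4.33%), and the median change was -0.01, against -0.10 over all genes. Without control 3, 23 were called higher (50%, against 33.1%) and 8 lower (17.4%, against 15.1%), for 31 calls in all and a median of 0.41. Leaving out IFN-beta array 2 left 13 calls. Trim14, Trim69 and 8 genes of chromosome 7 were called higher with all controls, against control 3 alone and without it, 10 genes in all (21.7%, against 4.14% of all genes). These include Trim6, whose probe was not above background on control 3 and which had to be higher to be tested, and 9 of the other 45 remain without it (20%). Trim36 and Trim16 were the 2 genes called lower in all 3 fits (4.35%, against 3.55%). With the slide as a block, 6 Trim genes were called higher (13.0%, against 3.41%) and 1 lower (2.17%, against 1.92%).

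The largest rises lay side by side in the genome. Probes for Trim6, Trim34a, Trim5, Trim12a, Trim34b, Trim12c, Trim30b, Trim30a and Trim30d, in that order, span 238 kb at chr7:111382909-111620864 of mm9. Of these 9 genes, 8 were called higher and 0 lower by limma (9 and 0 at an unadjusted p under 0.05), with a median change of 2.14 (0.75 to 2.64). Without Trim6, which was detected in full only with IFN-beta, 7 of 8 were called higher and the median was 2.18. The other 37 Trim genes had 6 calls in each direction and a median of 0.16 (-1.98 to 1.65). All of the 18 detected probes in the group were higher on every IFN-beta array than on every control array, and 16 of them were called when each probe was fitted on its own. Over all genes tested, 11.8% were called higher and 23.4% had groups that did not overlap, with IFN-beta higher. These shares count genes rather than probes, and several of the 18 probes belong to the same gene. The row holds several related genes of the same subfamilies. Across the group's 154 probe pairs of different genes, 0 shared a 30-base stretch within 4 edits, although hybridisation of related transcripts to a probe was not tested.

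Several of these genes hold the core of the interferon-stimulated response element at their RefSeq start, and the stretches are printed to show how alike they are. The core was searched on both strands as GAAA, any 2 bases and GAAA again, in the 250 bases before and 50 after each start in RefSeq on GRCm38.p6, and TTTC on the gene's own strand marks a match on the other. Of 27025 genes with such a window, 3.99% held a match. In the chromosome 7 group 6 of 9 did, namely Trim5, Trim12a, Trim12c, Trim30a, Trim30d and Trim34a. Capitals mark the match, and each sequence reads 5′ to 3′ on the strand of its gene.
Trim5, chr7:104288107-104288186, minus strand, the 80 bases before the start: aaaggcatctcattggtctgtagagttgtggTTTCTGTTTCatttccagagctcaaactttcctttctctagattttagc
Trim12c, chr7:104353350-104353429, minus strand, the 80 bases before the start: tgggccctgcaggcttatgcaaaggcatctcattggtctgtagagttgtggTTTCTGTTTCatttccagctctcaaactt
Trim12a, chr7:104315466-104315495, minus strand, 30 bases from the start on: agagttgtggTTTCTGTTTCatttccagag
Trim30a, chr7:104465194-104465273, minus strand, the 80 bases before the upstream of its 2 starts: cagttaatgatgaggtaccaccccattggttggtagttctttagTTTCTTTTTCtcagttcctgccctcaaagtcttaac
Trim30d, chr7:104507850-104507929, minus strand, the 80 bases before the start: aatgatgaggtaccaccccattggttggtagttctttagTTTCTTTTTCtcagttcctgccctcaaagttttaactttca
Trim34a, chr7:104244457-104244486, plus strand, 30 bases from the start on: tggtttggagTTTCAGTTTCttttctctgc

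The 30 bases around the match, from 10 before it to 10 after, were the same in Trim5 and Trim12a (30 of 30), and Trim12c had 28 of 30 in common with each. Trim30a, at the upstream start, and Trim30d had 30 of 30 in common. Across the 2 sets, Trim12a and Trim30d had 15 of 30. The annotated starts put the match before the gene in Trim5 (first base at -49), Trim12c (-29), Trim30a (-36) and Trim30d (-41), and just inside it in Trim12a and Trim34a (11 bases from the start in each). The array carries a 60-base probe for Trim12a that contains this shared stretch, and it was above background on 0 of the 6 arrays. Trim6, Trim30b and Trim34b had no such letters in their windows, yet each was called higher.

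Of the Trim30 genes, Trim30b had levels of -1.58, -1.80 and -1.04 in the controls and 1.35, 1.23 and 0.92 with IFN-beta. The fitted change was 2.64 ± 0.24 (adjusted p = 0.00044), or 6.23-fold, and 2.21 against control 3 alone. Trim30a encodes a known brake on Toll-like receptor signalling to NF-kappaB. Its level was 1.89, 1.75 and 2.37 in the controls and 3.95, 4.25 and 4.46 with IFN-beta, a change of 2.22 ± 0.23 (adjusted p = 0.00070). Its 3 detected probes gave 2.22 to 2.41, so the choice of probe did not alter the size. Trim30d lay at 1.17, 1.04 and 2.26 in the controls and at 3.76, 3.89 and 3.94 with IFN-beta. Control 3 was the highest control for Trim30d by over 1 log2 unit, and the change was 2.38 ± 0.32 over all controls (adjusted p = 0.0024) and 1.60 against control 3 alone. A further Trim30d probe gave 2.996.

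In the Trim34 pair, Trim34b lay at -3.29, -3.40 and -2.74 in the controls and at -0.46, -0.61 and -0.52 with IFN-beta. Its change of 2.61 ± 0.21 had the lowest adjusted p of the family (0.00027), and was 1.82 with normexp background correction and 1.62 with quantile normalization as well. Here and below, normexp added an offset of 50 to each signal before the log2, which weighs most on dim probes. Trim34a had levels of 0.72, 0.76 and 1.47, then 3.15, 3.1 and 3.12, and the change was 2.14 ± 0.23 (adjusted p = 0.00085). The 3 IFN-beta arrays lay within 0.05 log2 units of each other, and 4 probes gave 2.09 to 2.47. Trim12c rose from -0.88, -1.04 and -0.57 to 1.38, 1.12 and 1.19 (2.06 ± 0.18, adjusted p = 0.00042). A second Trim12c probe gave only 0.56 (adjusted p = 0.12), so its probes did not have the same size of change. Trim12a rose from 2.65, 2.58 and 3.20 to 4.44, 4.55 and 4.81 (1.79 ± 0.22, adjusted p = 0.0015), and its 3 probes gave 1.16 to 2.07. Trim5, the mouse gene named for the retroviral restriction factor, had levels of -2.47, -2.86 and -1.94 in controls and -1.64, -1.52 and -1.85 with IFN-beta. Its arrays did not overlap, but its change of 0.75 ± 0.25 missed the threshold (adjusted p = 0.073). Against control 3 alone the change was 0.27. Trim5 thus shares its promoter stretch with Trim12a in the printed window, while its measured change and that of Trim12a were 0.75 and 1.79, a difference that was not tested.

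Trim6, at the end of the row, makes unanchored ubiquitin chains that activate the kinase IKK-epsilon. It was the only member to pass the detection filter through the IFN-beta arrays alone, so a difference in its favour was built into its selection. Its levels were -4.38, -4.59 and -6.41 in the controls and -3.04, -3.02 and -2.89 with IFN-beta, and 2 of the 3 controls were above background. The fitted change was 2.14 ± 0.49 (adjusted p = 0.022), 0.89 with normexp correction and 0.47 with quantile normalization as well. Against control 3, where the probe was not well above background, it was at least 2.73-fold higher, taking the dimmest detected probe as the floor. The call was lost when any of the 3 IFN-beta arrays was left out (adjusted p 0.060 to 0.074).

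**Figure D2:**
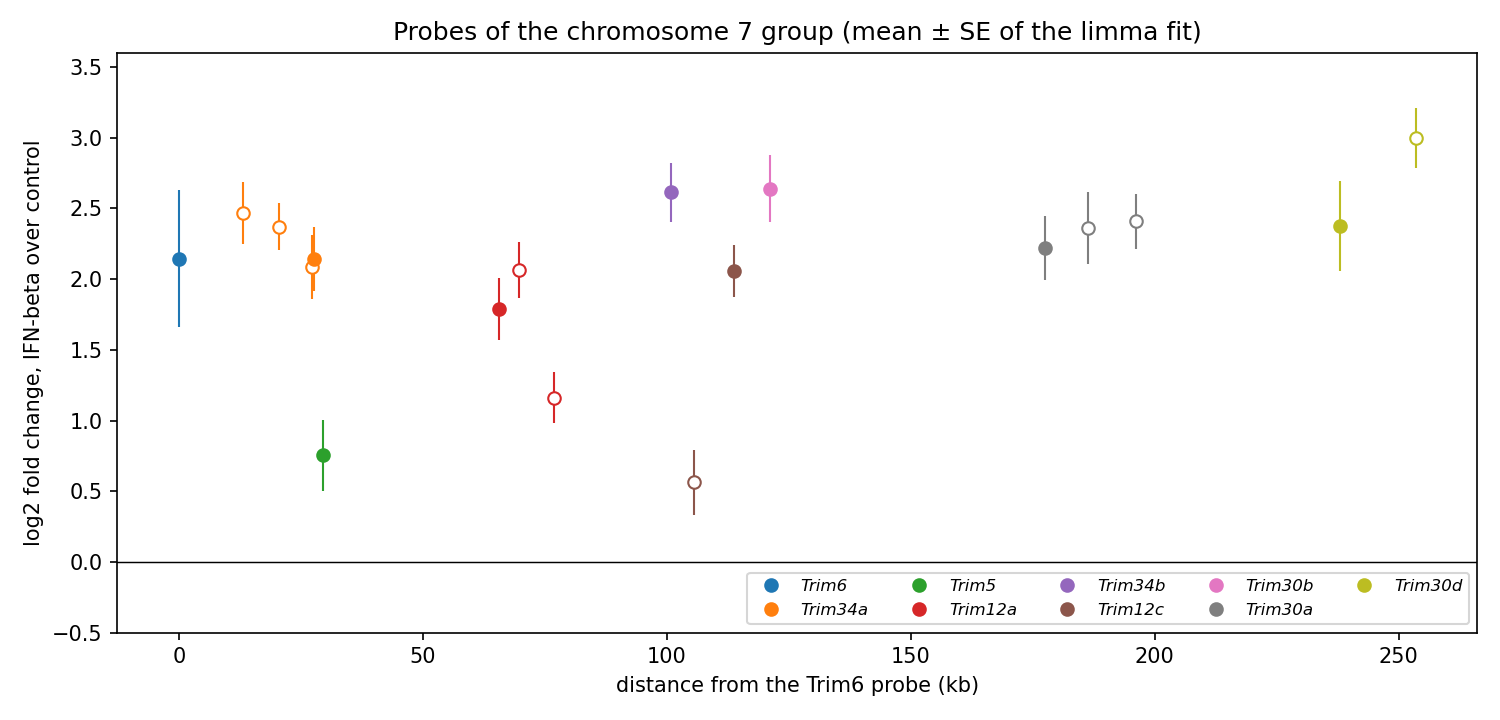
Change (log2, y axis, mean ± SE of the limma fit of each probe) of the 18 detected probes of the 9 chromosome 7 genes, by distance in kb from the Trim6 probe (x axis), with filled points for the probe that stands for its gene and open points for further probes. All points lie above 0, and the lowest, at 0.56 and 0.75, are a second Trim12c probe and Trim5.

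Elsewhere in the genome, Trim14, Trim25, Trim21, Trim26, Trim69 and Trim24 were called higher. Trim14, an adaptor without a RING finger in the MAVS and cGAS pathways, lay at 1.25, 1.10 and 2.11 in the controls and at 2.92, 3.24 and 3.26 with IFN-beta. The change was 1.65 ± 0.28 (adjusted p = 0.0069) and 1.03 against control 3 alone (adjusted p = 0.049), and 3 probes gave 0.97 to 1.65. Trim25, the ligase of RIG-I, was already bright, at 5.34, 5.29 and 5.97, and reached 6.76, 6.79 and 6.97. Its change was 1.31 ± 0.22 (adjusted p = 0.0067), and 0.87 against control 3 alone (adjusted p = 0.058). The Trim25 probes gave changes from 0.74 to 2.44. The probe with 0.74 was about as bright in controls (5.32, 5.27 and 5.97) and was not called when fitted on its own (adjusted p = 0.056). Trim21, the antibody receptor of the cytosol, moved from 1.20, 1.12 and 1.69 to 2.35, 2.44 and 2.65 (1.14 ± 0.20, adjusted p = 0.0085), and its change against control 3 alone was 0.79 (adjusted p = 0.085). Its promoter window holds 2 overlapping matches of the response element core, printed because the match lies on the gene's own strand.
Trim21, chr7:102565447-102565476, minus strand, GRCm38.p6: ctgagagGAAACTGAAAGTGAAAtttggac

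Trim26, a gene of the major histocompatibility region that takes part in NF-kappaB and IRF3 control, lay at 2.29, 2.31 and 2.65 in the controls and at 3.21, 3.24 and 3.42 with IFN-beta. The change was 0.87 ± 0.18 (adjusted p = 0.014), and it was lost without IFN-beta array 2 or 3 or without control 1 or 2 (adjusted p 0.053 to 0.072). Trim26 also held 2 overlapping matches of the core, with first bases at -160 and -154 from its start. Trim69, a RING protein that assembles on microtubules, was dim on all arrays but did not overlap between groups, at -4.43, -4.17 and -3.97 against -2.97, -2.79 and -2.73. Its change of 1.36 ± 0.18 (adjusted p = 0.0024) was 0.90 with normexp correction and 0.49 with quantile normalization as well. The part of the normexp offset in these smaller values was not tested.

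Of the members outside the chromosome 7 row, Trim14 and Trim69 stayed called higher against control 3 alone, at 1.03 and 1.14, whereas Trim25, Trim21, Trim26 (0.64, adjusted p = 0.13) and Trim24 (0.52, adjusted p = 0.19) did not pass there. With the slide as a block, IFN-beta array 1 alone stands against the 3 controls and is assumed to vary like the arrays of both slides. Trim12a, Trim12c, Trim30a, Trim30b, Trim34a and Trim34b were called higher in that fit, with changes of 1.63 to 2.83. On the 4 arrays of slide 1 alone, Trim12c, Trim30b and Trim34b kept the call, and Trim30a (adjusted p = 0.071), Trim34a (0.074), Trim12a (0.10) and Trim36 (0.12) did not. Trim30d (2.27, adjusted p = 0.052), Trim69 (1.22, adjusted p = 0.052), Trim25 (1.23, adjusted p = 0.099), Trim14 (1.43, adjusted p = 0.12), Trim21 (1.01, adjusted p = 0.12), Trim26 (0.79, adjusted p = 0.15) and Trim6 (2.09, adjusted p = 0.18) kept their direction but not the call in the block fit. Trim24 also stayed higher without a call in the block fit (0.69, adjusted p = 0.14). Of the genes called lower, Trim36 held its call there, and Trim47 (adjusted p = 0.070), Trim3 (0.14), Trim2 (0.15), Trim16 (0.23) and Trim7 (0.29) stayed lower without a call.

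**Figure D3:**
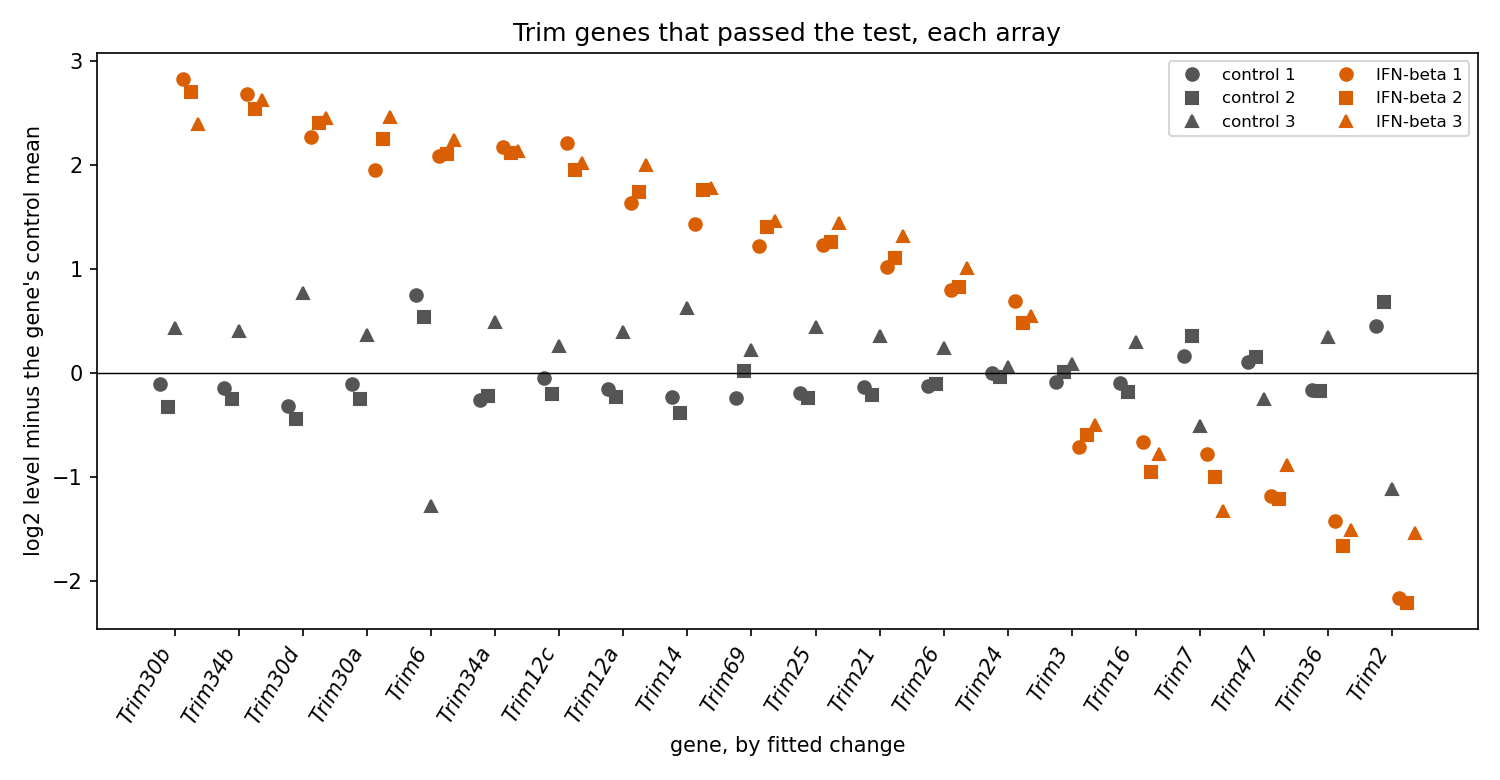
Levels of the 20 called Trim genes on each array (y axis, log2, minus the mean of the gene's 3 controls), with controls in grey and IFN-beta arrays in orange, and the symbol giving the replicate number. In the 14 genes to the left every orange point is above every grey one, and control 3 is the highest control in 13 of them, the exception being Trim6.

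Other PRY-SPRY members with parts in innate signalling were not called on their brightest probe. Trim35 lay at 4.57, 4.58 and 5.14 in controls and at 5.29, 5.13 and 5.49 with IFN-beta (0.54, adjusted p = 0.11), and control 3 overlapped the IFN-beta arrays. A second, dimmer Trim35 probe gave 0.70 when fitted on its own (adjusted p = 0.045), with groups that did not overlap. Trim27, a ligase of the endosomal and NF-kappaB pathways, had a change of 0.20 (adjusted p = 0.49) with groups that overlapped, and 0.58 and 0.71 on further probes (adjusted p = 0.20 and 0.053). Trim65, a ligase of the RNA sensor MDA5, had a change of -0.39 and Trim62, which ubiquitinates CARD9, one of -0.21, neither called (adjusted p = 0.21 and 0.45), and further Trim65 probes gave -0.50 and 0.18. Trim68 had a change of -0.66 (adjusted p = 0.087). As a class, the 26 PRY-SPRY genes tested had 13 calls higher (50%) and 3 lower (11.5%), with a median of 0.81 (-1.10 to 2.64). The 20 genes of the remaining classes held 1 call higher (5%) and 3 lower (15%), against 11.8% and 8.04% of all genes. The class and the chromosome 7 row are not independent, since all 9 genes of the row were listed as PRY-SPRY genes. The classes were assigned by gene name, and no protein sequence was read to check that each member, such as Trim12a, has the domain.

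The 3 PRY-SPRY genes that fell were Trim47, Trim7 and Trim16. Trim47 was bright, at 4.35, 4.40 and 3.99 in controls and 3.06, 3.03 and 3.36 with IFN-beta. It fell by 1.10 ± 0.19 on the log2 scale (adjusted p = 0.0073), and its change against control 3 alone was -0.84 (adjusted p = 0.081). Trim16, a protein without a RING finger that acts in the removal of damaged lysosomes, lay at -0.02, -0.11 and 0.37 in controls and at -0.59, -0.88 and -0.70 with IFN-beta. Its change was -0.80 ± 0.19 (adjusted p = 0.025) and -1.09 against control 3 alone (adjusted p = 0.033), but a second probe gave -0.04. Leaving out IFN-beta array 2 or 3 or control 1 ended the Trim16 call (adjusted p 0.076 to 0.10). Trim7, a binding partner of glycogenin, was measured at -3.20, -3.01 and -3.88 in controls and was not well above background on any IFN-beta array, where it read -4.15, -4.37 and -4.69. It passed the filter through the controls alone, so a lower level with IFN-beta was built into its selection. The fitted change, which rests on undetected IFN-beta readings, was -1.04 ± 0.27 (adjusted p = 0.032). It was -0.53 against control 3 alone, where Trim7 was not called. With the dimmest detected probe as the floor, Trim7 was 1.69-fold lower over all controls and 1.18-fold lower against control 3. IFN-beta array 1 read above that floor although undetected, so these are not firm bounds. Leaving out each array in turn ended the Trim7 call except for control 3 (adjusted p 0.050 to 0.11). Under normexp correction with its offset of 50, at the 75th percentile, the fitted sign turned (0.19, and -0.22 with quantile normalization). The part of the offset in this turn was not tested.

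NHL-repeat members were lower or not called. Trim2, a ligase known for its action on neurofilament in neurons, lay at 1.11, 1.34 and -0.46 in controls and at -1.50, -1.55 and -0.88 with IFN-beta. Control 3 stood far below controls 1 and 2, nearer to the IFN-beta arrays than to the other controls. The fitted change was -1.98 ± 0.46 (adjusted p = 0.023), but -0.85 against control 3 alone (adjusted p = 0.17). Leaving out IFN-beta array 1 or 2 or control 1 or 2 ended the Trim2 call (adjusted p 0.059 to 0.085). Its controls were thus ordered like the fibroblast markers, high on controls 1 and 2 and low on control 3, and the part of those transcripts in this value was not tested. Trim3, a relative known from endosomal transport, was tighter, at 1.31, 1.41 and 1.49 against 0.69, 0.80 and 0.90. It changed by -0.61 ± 0.16 (adjusted p = 0.032), and by -0.70 against control 3 alone, where it was not called (adjusted p = 0.099), with -1.17 and -0.43 from 2 further probes, and only with control 3 left out did the call hold (adjusted p 0.079 to 0.12 without each other array). Trim32, a ligase of muscle and of the STING pathway (-0.49, adjusted p = 0.13), and Trim71, an RNA-binding member of early development (-0.55, adjusted p = 0.15), were not called, although their groups did not overlap. The 4 NHL genes had a median change of -0.58.

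Among members with fibronectin type III domains and a COS box, which bind microtubules, Trim36 fell. Its levels were -0.54, -0.55 and -0.03 in controls and -1.80, -2.04 and -1.89 with IFN-beta. The change of -1.54 ± 0.20 (adjusted p = 0.0020) was -1.87 against control 3 alone (adjusted p = 0.0057), -1.42 with the slide as a block (adjusted p = 0.046) and -0.88 with normexp correction. Control 3 was the highest control for Trim36, Trim16 and Trim3 and the lowest for Trim2, Trim47 and Trim7, so that the lower calls did not rest on controls 1 and 2 in the same way. The summed level of the fibroblast markers was also lowest on control 3, and its part in these values was not tested. Trim46, which organises the start of the axon, had levels of -0.50, -0.17 and -2.17 in controls and -0.18, 0.17 and 0.29 with IFN-beta. It was not called over all controls (1.04 ± 0.48, adjusted p = 0.16). Against control 3 alone it was 2.26 higher (adjusted p = 0.0057), and without control 3 the change was 0.43 (adjusted p = 0.11). A second Trim46 probe gave 0.87 when fitted on its own (adjusted p = 0.023), with -3.50, -3.55 and -4.11 in controls and -2.87, -2.77 and -2.90 with IFN-beta.

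**Figure D4:**
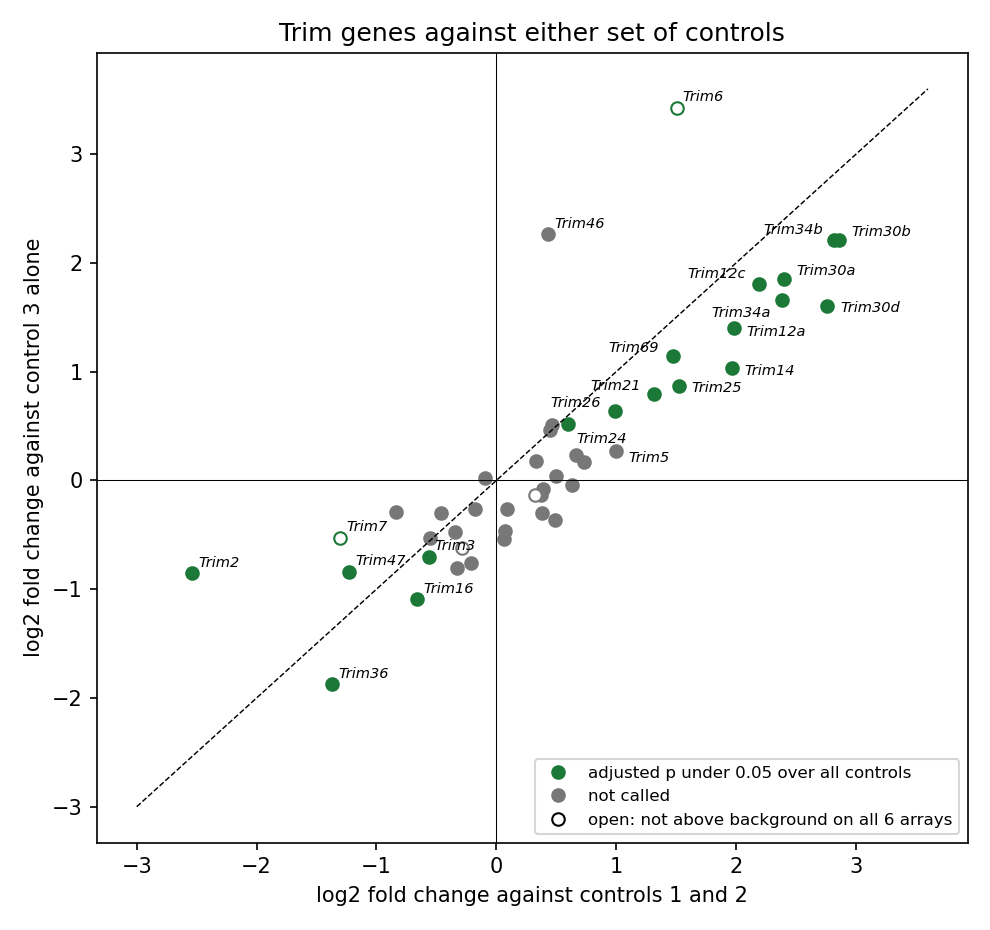
Change of the 46 Trim genes against controls 1 and 2 (x axis, log2) and against control 3 alone (y axis, log2), with the genes called over all controls in green and the line of equal change dashed; the same IFN-beta arrays enter both axes. Open points are genes not above background on all 6 arrays, among them Trim6, whose height on the y axis rests on a control 3 signal below background. Trim46 lies far above the line, and Trim2 has -2.54 on the x axis but -0.85 on the y axis.

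The 3 chromatin members with a PHD finger and a bromodomain had changes of 0.20 to 0.57. Trim24, a cofactor of nuclear receptors, was called higher at 0.57 ± 0.15 (adjusted p = 0.038), from 4.44, 4.40 and 4.50 to 5.14, 4.92 and 4.99. Its 2 further probes gave -0.35 and -0.33, of the opposite sign, and it was the only called member with such a probe. With an array other than control 3 left out, the call ended (adjusted p 0.099 to 0.16). Trim28, the corepressor that KRAB zinc finger proteins bring to retroelements, was measured at 4.67, 4.74 and 5.17 in controls and at 5.05, 5.16 and 5.08 with IFN-beta (0.24, adjusted p = 0.40), and a dimmer probe gave 0.95 (adjusted p = 0.065). Trim33, a regulator of SMAD signalling, had a change of 0.20 (adjusted p = 0.62), and -0.35 and 0.30 on further probes. Against control 3 alone the brightest probes gave -0.08 for Trim28 and -0.37 for Trim33, so no direction is given for them.

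Among members of the remaining classes, 0 of 9 were called by limma, and at an unadjusted p under 0.05 there were 1 higher and 1 lower. Trim56, a ligase linked to STING, came nearest, at 2.62, 2.77 and 2.68 in controls and 3.1, 3.31 and 3.03 with IFN-beta, groups that did not overlap (0.46, adjusted p = 0.083). Trim8, which acts on SOCS1 in cytokine signalling, had a change of 0.41 (adjusted p = 0.25). Trim13 of the endoplasmic reticulum had 0.16, the ARF-domain ligase Trim23 had -0.11, Trim59 had -0.40 and the MATH-domain ligase Trim37, which acts at peroxisomes and centrosomes, had -0.41. The adjusted p of those 4 ran from 0.13 for Trim37 to 0.73 for Trim23, and the sign of Trim13 or Trim23 turned under at least 1 other scaling (Trim13 to -0.02, Trim23 to 0.05). A further 9 members (Trim9, Trim11, Trim39, Trim41, Trim43c, Trim44, Trim45, Trim52 and Trim54) had changes of -0.40 to 0.52 and adjusted p values of 0.079 or above on their brightest probes. For Trim44 that probe gave -0.06, while a second, dimmer probe gave 0.78 when fitted on its own (adjusted p = 0.028), with groups that did not overlap. Trim9 and Trim54 passed the filter through the controls alone, with 1 of 3 IFN-beta arrays above background for each.

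The 20 names without a detected probe in either group were Trim10, Trim15, Trim17, Trim29, Trim31, Trim38, Trim40, Trim42, Trim43b, Trim50, Trim55, Trim58, Trim60, Trim61, Trim63, Trim66, Trim67, Trim72, Trim75 and Trim80. Trim29, Trim43b and Trim67 were above background on 2 controls, Trim63, a ligase of muscle, on 2 controls and 1 IFN-beta array, and the remaining names on 0 arrays. Trim38, described elsewhere as an inhibitor of inflammatory signalling, was thus not detectable with this array's probe in either group.

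Over the whole family, the response element core stood in the windows of 9 of the 36 tested genes found in the promoter table (25.0%, against 3.99% of all genes). Of genes called higher it stood in 7 of 13 (53.8%), of genes called lower in 1 of 3 (Trim2), and of genes not called in 1 of 20 (Trim5). Trim5, Trim12a and Trim12c have nearly the same stretch around the match (28 to 30 of 30 bases), and so do Trim30a and Trim30d (30 of 30). These shares therefore count related windows more than once. Trim14 was not matched in that table. The gamma-activated site, searched as TTCNNNGAA on both strands, was found in 2 of the 36 (5.56%, against 9.55% of all genes), Trim45 and Trim46, neither of them called. These matches describe letters in a window and no binding was measured. The searches can overlap in sequence, and a gene with several starts counted once.

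The family also has members and close relatives under other names. Of 10 such genes 5 were tested and 3 called higher (60%, against 11.8% of all genes). Their median change was 0.77, against 0.10 over all genes. Pml, the TRIM19 protein of nuclear bodies, had levels of 1.67, 1.60 and 2.06 in controls and 3.14, 3.26 and 3.20 with IFN-beta (1.42 ± 0.18, adjusted p = 0.0019). Mefv, which encodes pyrin, rose by 0.92 (adjusted p = 0.017) and Rnf135, a further ligase of RIG-I, by 0.77 (adjusted p = 0.025). Both of these calls were lost without IFN-beta array 2 or 3 or without control 1 or 2, with adjusted p up to 0.079 for Mefv and 0.11 for Rnf135. Against control 3 alone Mefv had 0.58 (adjusted p = 0.16) and Rnf135 0.59 (adjusted p = 0.20), and neither was called.

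In the sensing pathway that these ligases act on, 6 of 14 genes were called higher and 0 lower by limma (8 and 0 at an unadjusted p under 0.05), and the median was 0.65. The share called higher was 42.9%, against 11.8% of all genes. The called genes with the lowest p rose by 4.32 ± 0.30 for Irf7, 3.79 ± 0.25 for the ubiquitin-like Isg15 and 2.83 ± 0.20 for Ddx58, which encodes RIG-I (adjusted p = 0.00014, 0.00012 and 0.00015). The adaptors Mavs (-0.29) and Traf3 (-0.02), the kinase Tbk1 (0.22) and its target Irf3 (0.02) were not called. Of 15 ubiquitin-conjugating enzymes, Ube2l6, the conjugating enzyme of Isg15, rose by 2.01 ± 0.25 (adjusted p = 0.0016) and Ube2e2 fell by 1.55 ± 0.19 (adjusted p = 0.0015). The shares called in that list were 6.67% higher and 6.67% lower, against 11.8% and 8.04% of all genes. Partners of Trim28 in KRAB silencing had 0 calls higher and 2 lower of 12 by limma (2 and 2 at an unadjusted p under 0.05), the remodellers Chd3 (-0.84, adjusted p = 0.044) and Chd4 (-0.78, adjusted p = 0.030). Autophagy factors bound by Trim proteins had 1 call higher, Sqstm1 (0.90, adjusted p = 0.026), and 2 lower of 12, Map1lc3a (-1.49, adjusted p = 0.016) and Ulk1 (-0.55, adjusted p = 0.048). Each of the Chd3, Chd4, Sqstm1 and Ulk1 calls ended when an array other than control 3 was left out, with adjusted p up to 0.16, 0.12, 0.11 and 0.16, and the Map1lc3a call without any IFN-beta array or control 1, with adjusted p up to 0.056. Against control 3 alone Chd3 had -0.36 (adjusted p = 0.38), Sqstm1 0.54 (adjusted p = 0.24), Ulk1 -0.65 (adjusted p = 0.12) and Map1lc3a -0.74 (adjusted p = 0.11), none of them called, while Chd4 was (-1.09, adjusted p = 0.038). Map1lc3a had controls of 1.35, 1.38 and 0.25, ordered like the fibroblast markers, whose part in it was not tested. Of the 12 genes in each of these lists, the shares were 0% and 8.33% higher and 16.7% lower in both, 2 genes each, against 11.8% higher and 8.04% lower of all genes, and nothing is read from them about the lists.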

How the data were processed

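Single-colour Agilent arrays of 6 samples, 3 control and 3 IFN-beta, were used. The deposited scanner files hold a processed signal intensity per spot, background-corrected by Agilent Feature Extraction 12.0.3.1 per the file headers, with probe positions on mm9. A table of log2 values deposited for these arrays was set against them (correlation with the log2 signal 0.996 to 0.999, column medians 4.82 to 4.83); its scaling is not given in the sources used here, and it served as an alternative. Control spots and 7 outlier-flagged probes were left out, spots of a probe averaged, and log2 signals set against each array's 75th percentile. Probes well above background on all 3 arrays of a group were kept (29794 of 56598). Names were updated from RefSeq (GRCm38.p6) for 32989 probes by accession and 10223 by symbol, and 13386 kept the file's name. limma 3.58.1 in R 4.3.3 (lmFit, eBayes) compared the groups with Benjamini-Hochberg adjustment over 19500 genes. The code was tested on simulated data.

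Genes named were those past the threshold, those with known parts in immunity, silencing or signalling, the 3 largest uncalled changes in each direction, and the chromosome 7 row; of other lists, up to 3 called genes in each direction. Members and lists were chosen with earlier results of these data known. Alternatives covered scaling, background correction (normexp with an offset of 50), filters, probe choice, array weights, replicate and slide blocks, and each array left out. The number of arrays limits the precision, and 0 spots were saturated.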

Additional observations from a re-analysis of the deposited data

How the results depend on the processing

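Each result was recomputed under 21 other settings. Of 775 values for the named Trim genes, 642 kept their direction and side of the threshold, 86 lost the call, 28 gained one and 19 changed sign; of 418 for called genes, 329 kept both and 3 changed sign. Over all genes (3868 calls), there were 1693 calls with no filter on dim probes, 12745 with array weights, 1039 with the slide as a block, 369 within slide 1, 1862 against control 3 alone and 1828 to 9397 when an array was left out. The same settings gave 13, 38, 7, 3 and 13 Trim calls, and 13 (without IFN-beta array 2) to 31 (without control 3) when an array was left out, against 20. The median Trim change was 0.44 with array weights and -0.01 against control 3 alone. Spike-in scaling moved the median of all genes from 0.10 to -0.08, and gave 1124 calls higher and 2004 lower over all genes (12 and 5 for Trim genes) against 2301 and 1567; normexp at the 75th percentile gave 3837 and 1651. Changes of sign, whose cause was not tested, were for Trim7 0.19 with normexp at the 75th percentile; for Trim24 -0.03 over the mean of probes and -0.33 for the dimmest; for Trim13 -0.02 with spike-in scaling and -0.30 against control 3; for Trim23 0.05 and 0.03 with normexp (75th percentile, quantile), 0.14 with array weights and -0.24 to 0.07 with an array left out; for Trim33 -0.35 for the dimmest probe, -0.05 with the slide block and within slide 1 and -0.37 against control 3; for Trim8 -0.08 for the dimmest probe and -0.04 against control 3; for Trim27 -0.14 and Trim28 -0.08 against control 3; for Trim62 0.12 with normexp at the 75th percentile; and for Trim65 0.18 for the dimmest probe. With the replicate number as a block, 17 Trim genes and 3264 genes were called, and Trim2, Trim3 and Trim24 were lost (adjusted p 0.056, 0.054 and 0.066). Same-numbered arrays correlated at 0.022 to 0.073 in their deviations from the group means, so the numbers were not taken to pair the samples, although each array correlated best with its own number.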
